A study of Mus musculus with 8 samples.

Results

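The interleukin-1 receptor cluster is a run of 6 neighbouring genes on mouse chromosome 1, here followed in regulatory T cells (Treg). The members were the listed genes Il1r2, Il1r1, Il1rl2, Il1rl1, Il18r1 and Il18rap, which are 6 of the 21887 protein-coding genes of the RefSeq table used. Each gene was measured over its span with 5 kb on both sides. The whole cluster, from 40079692 to 40556707 (build mm10, 477.0 kb with its flanks), was also followed in the 49 windows of 10 kb that touch it, of 263174 on the autosomes and X.

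All 8 libraries came from C57BL/6 mice aged 8 to 12 weeks. H3K9me2 CUT&RUN was made on tumour Treg of mice labelled JMJD1CTregcKO, a Treg-restricted knockout of the histone demethylase gene Jmjd1c (cKO, 3 libraries), and of mice labelled JMJD1CWT (WT, 3 libraries). ATAC-seq, in which a transposase cuts open chromatin, was made once on tumour Treg and once on spleen Treg, both labelled JMJD1CWT. Cells were selected magnetically and then sorted by fluorescence. The driver of the knockout, the kind of tumour and the number of mice behind a library are not given in the sources used here. The deposited files are peak lists, called by the authors in each library alone. In the file headers, cKO replicates 1 and 3 carry the same knockout number under different prefixes, and the labels do not say whether they are separate animals. The p-values therefore measure the spread between these libraries, which may in part be technical.

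These receptors share one plan: a binding chain meets its cytokine, an accessory chain joins, and the intracellular domains recruit Myd88 and kinases of the Irak family, which leads to NF-κB. Il1r1 encodes the signalling receptor for interleukin-1, and Il1r2 a decoy that binds the same cytokine without signalling. Il1rl2 encodes the receptor for the interleukin-36 cytokines. Il1rl1 encodes ST2, the receptor for interleukin-33, which is carried by many Treg of non-lymphoid tissues. Il18r1 and Il18rap encode the binding and the accessory chain for interleukin-18. H3K9me2 is a histone mark associated with silent chromatin, and Jmjd1c has been described as an enzyme that removes it.

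The promoters are shown first, as the sites where an ATAC peak can be tied to a start of a gene. RefSeq promoter sequences (GRCm38.p6, plus strand, the 250 bases before the transcription start) were available for 6 of 6 genes in 10 windows. A tumour peak touched the promoter window of Il1r2, of Il18r1 (3 of 3 windows) and of Il18rap, and the spleen list touched none. Among 17492 protein-coding genes with such a window, 41.8% were touched in tumour and 34.1% in spleen, so 3 of 6 in tumour is near the background. The Il1r2 window at chr1:40085843-40086092 lay with 225 of its bases in a tumour peak, the Il18r1 window at chr1:40465302-40465551 with 16 and the Il18rap window at chr1:40515112-40515361 with 166. Both available Il1rl1 windows, at chr1:40429320-40429569 and chr1:40439379-40439628, are also shown. No ATAC peak touched them and H3K9me2 peaks did. The windows of Il1r1 and Il1rl2, not shown, were touched by neither. The share of all promoters touched by H3K9me2 peaks was not computed. A start, here and below, means one with such a window. The RefSeq spans of Il1r2, Il1r1 and Il1rl1 begin further upstream, at 40084692, 40222480 and 40404864, and no window was available there. Capitals mark matches, on either strand, to 4 short motifs described after the sequences.
Il1r2: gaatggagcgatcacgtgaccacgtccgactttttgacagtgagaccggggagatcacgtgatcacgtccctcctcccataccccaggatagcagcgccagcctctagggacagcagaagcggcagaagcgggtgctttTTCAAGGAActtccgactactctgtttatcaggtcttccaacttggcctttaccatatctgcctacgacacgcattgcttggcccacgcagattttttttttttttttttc
Il18r1: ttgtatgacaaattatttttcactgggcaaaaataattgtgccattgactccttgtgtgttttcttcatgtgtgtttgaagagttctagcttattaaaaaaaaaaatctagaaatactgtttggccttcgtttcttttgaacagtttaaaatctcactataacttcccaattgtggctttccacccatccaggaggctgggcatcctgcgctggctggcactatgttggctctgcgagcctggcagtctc
Il18rap: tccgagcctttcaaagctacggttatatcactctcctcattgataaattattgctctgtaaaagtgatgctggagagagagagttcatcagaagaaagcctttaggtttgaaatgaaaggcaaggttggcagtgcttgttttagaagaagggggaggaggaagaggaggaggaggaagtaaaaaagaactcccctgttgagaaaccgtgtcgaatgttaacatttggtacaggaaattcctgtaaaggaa
Il1rl1, first start: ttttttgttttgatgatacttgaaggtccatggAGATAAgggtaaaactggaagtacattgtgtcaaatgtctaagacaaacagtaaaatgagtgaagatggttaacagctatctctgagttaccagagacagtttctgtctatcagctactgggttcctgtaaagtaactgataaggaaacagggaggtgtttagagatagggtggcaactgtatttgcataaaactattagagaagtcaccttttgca
Il1rl1, second start: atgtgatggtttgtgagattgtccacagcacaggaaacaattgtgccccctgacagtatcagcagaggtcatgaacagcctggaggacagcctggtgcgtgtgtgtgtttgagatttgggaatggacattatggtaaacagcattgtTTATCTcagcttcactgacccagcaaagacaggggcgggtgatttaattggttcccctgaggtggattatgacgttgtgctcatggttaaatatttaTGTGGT

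The letters searched on both strands were TGANTCA for AP-1, AGATAA for the GATA family, TTCNNNGAA for the STAT family and TGTGGT for the Runx family, and no motif can lie wholly within another. The Il1r2 promoter held 1 STAT match, 111 bases before the start. Both Il1rl1 promoters held 1 GATA match, 217 and 103 bases before their starts, and the second also held a Runx match. The Il18r1 and Il18rap windows shown held none of the 4. Of the windows not shown, that of Il1rl2 held 1 Runx match and the last of Il18r1 held 2 STAT matches. No member window held the AP-1 letters. Over all 32851 RefSeq promoters of the same length, 6.75% held the AP-1 letters, 9.99% the GATA letters, 7.02% the STAT letters and 14.0% the Runx letters. The Il1r2 window was also the one with the most CpG among the 10, with 14 against a median of 6 over all promoters. Its GC content of 51.2% was near the median of 52.4%, and the first Il1rl1 window was lowest among the 10 at 37.6% with 0 CpG. These matches describe the letters only.

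Across the whole cluster the tumour list held 23 ATAC peaks and the spleen list held 1. Of the 23, 22 shared no base with a spleen peak. That is 48.2 peaks per Mb in tumour and 2.1 per Mb in spleen, against 10.5 and 4.97 per Mb over the autosomes and X. With 1 library per tissue there is no replicate and no test, and more open cells cannot be told apart from more opening per cell. The tumour list is also the longer, with 27655 peaks against 13089, from 11293674 and 11068821 tags. Its peaks needed 10 tags where spleen needed 15, and were 322 bp wide against 869 bp. Genome-wide, 59.7% of the tumour list and 14.9% of the spleen list overlapped no peak of the other. Of the 23 cluster peaks, 17 had a score, in tags of the library, at or above the spleen threshold of 15. When the tumour list was held to the 13089 peaks of highest score, 5 cluster peaks remained, none of them overlapping spleen, and the share without a spleen partner was 33.5% genome-wide. In the stronger 50% of each list the cluster held 7 tumour peaks and 0 spleen peaks.

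**Figure D1:**
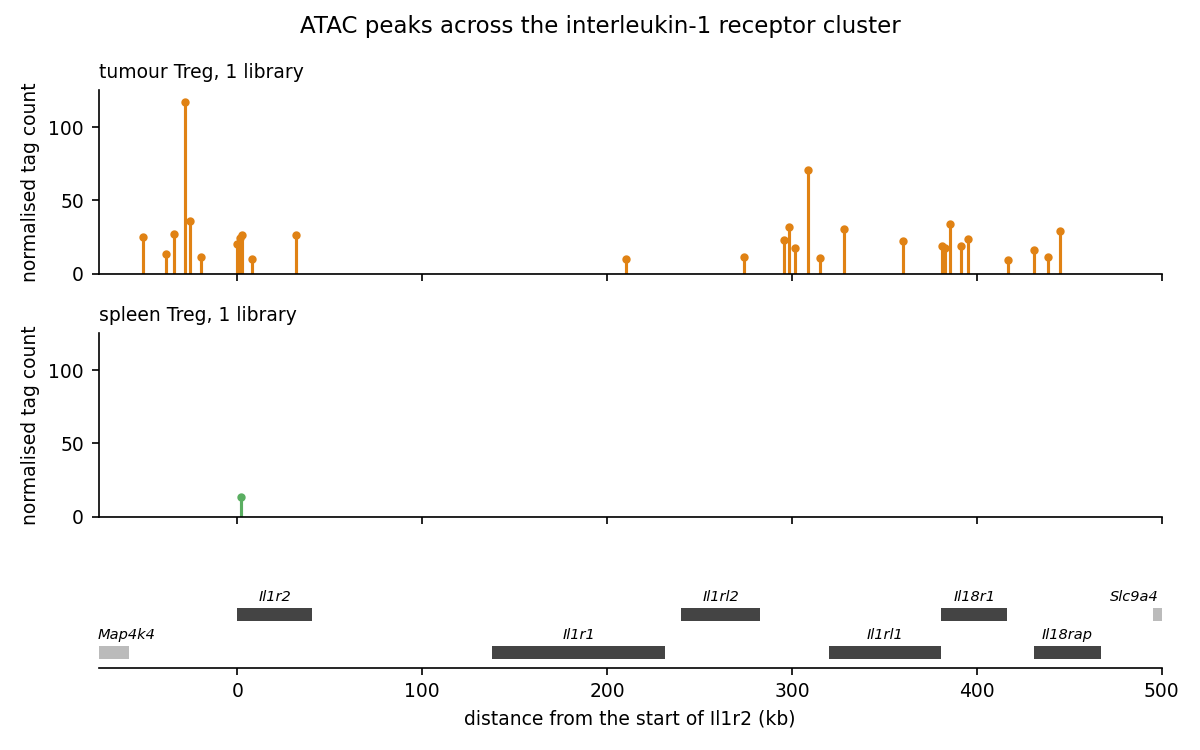
ATAC peaks along the cluster, in kb from the start of Il1r2, with the authors' normalised tag count of each peak on a linear axis (top, tumour Treg; middle, spleen Treg; 1 library each) above the gene spans (dark, the 6 receptor genes; grey, the flanking genes). Of the 23 tumour peaks of the cluster, all but that in Il1r1 gather over Il1r2 and from the end of Il1rl2 to Il18rap. The single spleen peak lies in Il1r2.

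All 6 genes had a tumour peak, where 59.9% of protein-coding genes did, and 1 of 6 had a spleen peak, where 47.1% did. A tumour peak with no spleen peak was listed for 5 of 6 members and for 14.1% of all genes. Neighbouring members share peaks in their flanks, so the 6 genes are not independent of each other. In windows of 10 kb, 15 of 49 (30.6%) held a tumour peak against 9.04% of all windows, and 1 of 49 held a spleen peak against 5.21%.

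Peaks were also counted at marker genes of several cell types. Over all protein-coding genes 59.9% had a tumour peak and 47.1% a spleen peak, so a marker gene with a peak is not unusual. Markers of myeloid cells, which can carry several of these receptors, had a tumour peak in 3 of 6 genes and a spleen peak in 0 of 6, with 7 and 0 peaks in all. Itgam had 2, Cd14 had 2 and Spi1 had 3 in tumour, while Csf1r, Lyz2 and Adgre1 had 0 in both lists. Mast cell and basophil markers had a tumour peak in 2 of 6 genes and a spleen peak in 1 of 6. Cpa3 had 1 in each list and Kit 1 in tumour, while Mcpt4, Fcer1a, Gata2 and Ms4a2 had 0 in both. Treg and T cell markers had peaks in 6 of 7 genes in both lists, with 25 in tumour and 10 in spleen in all. Foxp3, the defining factor of Treg, and Il2ra had 2 in each. Ikzf2 had 15 in tumour and 3 in spleen, and Tnfrsf18, Cd4 and Cd3e each had 2 and 1. Ctla4, an inhibitory receptor of Treg, had 0 in both. Markers of CD8 T and NK cells had a tumour peak in 1 and a spleen peak in 0 of 5 genes, those of B cells in 3 and 2 of 5, and those of melanocytes and epithelia in 1 and 2 of 5. The peaks of these lists numbered 1 and 0, 3 and 2, and 3 and 3. Stromal and endothelial markers had a tumour peak in 2 and a spleen peak in 3 of 5 genes, with 8 and 3 peaks in all. Pecam1 alone held 7 of the 8 in tumour and had 1 in spleen, while Cdh5 had 0 in tumour and 1 in spleen. Col1a1 had 1 in each, and Col1a2 and Pdgfrb had 0 in both. The part of other cells in the cluster's peaks was not tested.

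Il1r2, the decoy receptor, had 5 tumour peaks and the only spleen peak of the cluster. The tumour peaks had normalised tag counts of 19.9, 24.3, 26.1, 9.74 and 26.6 in order along the gene. The peak at 40085745 to 40086067 was centred 187 bases before the start that has a promoter window. The next, at 40086980 to 40087302, overlapped the spleen peak at 40086372 to 40087240, whose normalised tag count was 13.1. That spleen peak ranked 12529 of 13089 by score in its list. Il1r2 thus had 4 peaks listed in tumour only, a number reached by 2.97% of protein-coding genes of all lengths.

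Beyond the cluster's edge, the 58381 bp between Map4k4 and Il1r2 held 6 tumour peaks and 0 spleen peaks. The tallest of all those drawn lay here, at 40055981 to 40056303, with a normalised tag count of 116.9 and rank 1519 of 27655. Its centre was 29951 bp before the Il1r2 start that has a promoter window, and no link to a gene was measured. H3K9me2 peaks of cKO replicates 1 and 2 touched it, and those of no WT library did. Map4k4, a kinase gene on that side, had 7 tumour and 6 spleen peaks. Slc9a4, an ion exchanger gene on the other side of the cluster, had 0 in both lists.

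The interleukin-1 and interleukin-36 receptors were the sparsest. Il1r1, the longest member at 93722 bp, had 1 tumour peak, at 40294895 to 40295217 with a normalised tag count of 10.2. Il1rl2 also had 1, at 40358775 to 40359097 with 11.1. At least 1 tumour-only peak was listed for 35.3% of genes of all lengths, so these counts are near the background. No peak of either list lay in the 97249 bp between Il1r2 and Il1r1.

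Il1rl1, which encodes ST2, and Il18r1, the binding chain for interleukin-18, had 6 tumour peaks each and no spleen peak. At least 6 tumour-only peaks were listed for 1.07% of genes, a share that takes no account of gene length. The genes lie 133 bp apart, and 3 of the peaks were counted for both through the 5 kb flanks. Within the spans alone Il1rl1 had 2 and Il18r1 had 5. For its length Il18r1 had the most, 1.32 tumour peaks per 10 kb with flanks counted as peaks of the gene, followed by Il1r2 with 0.989, Il1rl1 with 0.850, Il18rap with 0.647, Il1rl2 with 0.189 and Il1r1 with 0.0964. These densities come from 1 library, and their order has no error to set it against.

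The peaks in the span of Il1rl1 had normalised tag counts of 30.5 and 22.1. The 5 peaks in Il18r1 had 18.6, 17.3, 33.6, 18.6 and 23.5, the first of them centred 76 bp after a start of the gene. The 37308 bp between Il1rl2 and Il1rl1 held 5 more tumour peaks, with 23.0, 31.9, 17.7, 70.8 and 10.6. The peak of 70.8, at 40393259 to 40393581, was the strongest inside the cluster. It ranked 4034 of 27655 and was centred 36150 bp before the nearest RefSeq promoter start, that of Il1rl1. The other cluster peaks were more ordinary, and the median score of the 23 was 22 against 26.0 over the whole tumour list.

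Il18rap, the accessory chain for interleukin-18, had 3 tumour peaks with normalised tag counts of 15.9, 11.1 and 28.8. The first was centred 5 bases before its start. Of the 23 cluster peaks, 17 lay in genes, 6 between them and 3 within 1 kb of a start that has a promoter window.

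The same pattern as that of Il1rl1 and Il18r1, with 6 tumour-only peaks, 0 shared and 0 spleen-only peaks, was found in 15 other genes by the counts of the 3 classes of peak. The 5 nearest in length to Il1rl1 were Abcg1, Dagla, Igfbp7, Rgs9 and Cyth4, and the same 5 were nearest to Il18r1. They lie on chromosomes 17, 19, 5, 11 and 15. The likeness rests on 2 libraries.

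H3K9me2 was measured as the percent of a region covered by the peaks of a library. The deposited H3K9me2 lists hold 24.4 to 43.9% of the peaks counted in their own headers, and each deposited peak has a fold of at least 2.01 over its surroundings. Covered percent therefore reflects short stretches of local enrichment and not the amount of the mark. The libraries had 24774509 to 30313851 tags and covered 3.39 to 5.36% of the genome. The peak lists do not measure the Jmjd1c transcript, so the knockout label was not checked against the targeted gene.

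The cluster as a whole was covered to 7.92, 9.07 and 4.69% in cKO replicates 1 to 3, and to 6.96, 6.94 and 5.45% in WT replicates 1 to 3. The cKO values spanned the WT values, with the lowest and the highest library of the 6 both in cKO. The means were 7.23% ± 2.27 (SD, n = 3) in cKO and 6.45% ± 0.866 (SD, n = 3) in WT. The difference of 0.775 percentage points had p = 0.6 in a two-sided exact permutation test, in which 3 against 3 cannot go below 0.1. It turned to −0.148 without cKO replicate 2 and was 2.04 without cKO replicate 3 and 0.429 without cKO replicate 1. Set against the coverage of the genome in the same library, the cluster stood at 1.48, 2.04 and 1.29 in cKO and at 1.79, 1.70 and 1.61 in WT, above 1 in 6 of 6 libraries. On that scale cKO minus WT was −0.0944 (exact permutation p = 0.8, n = 3 and 3).

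No gene passed the test for H3K9me2 between cKO and WT. With limma, 0.0% of 19016 genes reached an adjusted p under 0.05, 1591 had an unadjusted p under 0.05, and the lowest adjusted p was 0.519. Among the members, 0 of 6 passed, 5 had a higher mean in cKO and 1 a lower one, with a median difference of 1.64 percentage points. Over all tested genes 72.0% were higher in cKO, with a median of 1.26, so the members lay where other genes did. The cKO libraries also covered more of the genome in 2 of 3 cases than any WT library. In none of the 6 members did the 3 cKO libraries separate from the 3 WT libraries, while 13.0% of tested genes lay wholly above and 1.34% wholly below.

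Il18r1 had the largest mean difference of the 6. Its covered percent was 9.82, 13.5 and 4.94 in cKO and 2.75, 3.61 and 6.90 in WT. The values of cKO replicates 1 and 2 exceeded all WT values, and cKO replicate 3 lay among them. The difference was 4.99 percentage points (SE 2.64, limma adjusted p = 0.568). It was 7.22 without cKO replicate 3 and 2.96 without cKO replicate 2, with no call in either. In lists of equal length it was 2.31.

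Il1rl1 varied most among the cKO libraries. Its covered percent was 9.19, 14.3 and 2.30 in cKO and 6.06, 9.65 and 4.57 in WT. The cKO libraries held both the highest and the lowest value. The difference of 1.84 (SE 3.30, limma adjusted p = 0.856) turned to −1.01 without cKO replicate 2 and was 4.99 without cKO replicate 3.

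Il18rap was the one member with a lower cKO mean. It was covered to 5.26, 10.4 and 2.49% in cKO and to 5.69, 11.5 and 3.47% in WT. The order of the replicate numbers was alike in both groups, with replicate 2 high and replicate 3 low. The difference was −0.83 percentage points (SE 2.90, limma adjusted p = 0.935), and it turned to 1.47 without WT replicate 2 and to 0.948 without cKO replicate 3.

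Il1r2 was the least covered member in WT. Its values were 5.65, 3.70 and 7.39% in cKO and 2.47, 4.24 and 2.81% in WT. The groups overlapped through cKO replicate 2 and WT replicate 2. The difference was 2.4 (SE 1.62, limma adjusted p = 0.648). In lists of equal length it was 1.34. It was 1.5 without cKO replicate 3, which was the highest of the 6 here and the lowest of the 6 in Il1rl1 and Il18rap.

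Il1r1 was covered to 6.84, 9.47 and 5.64% in cKO and to 11.5, 5.40 and 4.79% in WT. It was the only member above the genome-wide coverage in all 6 libraries. Its difference was 0.10 percentage points (SE 2.49, limma adjusted p = 1.0) and ran from −1.11 to 2.22 as single libraries were left out. Il1rl2 was covered to 4.83, 9.46 and 4.87% in cKO and to 5.65, 6.13 and 3.07% in WT, with a difference of 1.44 (SE 2.01, limma adjusted p = 0.811) that turned to −0.100 without cKO replicate 2.

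**Figure D2:**
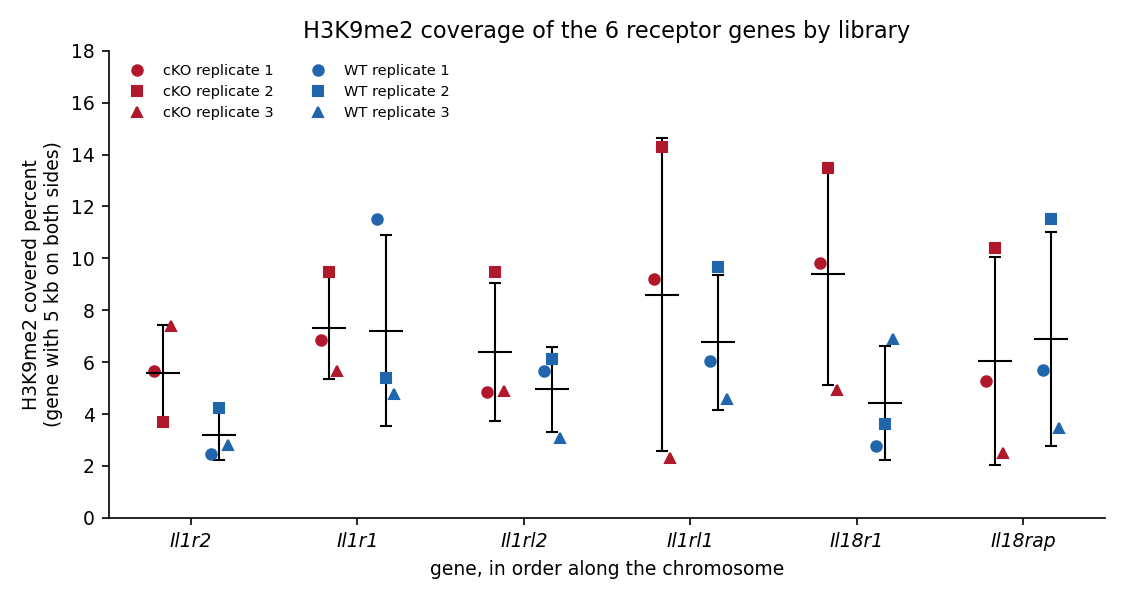
H3K9me2 covered percent of each receptor gene with 5 kb on both sides, on a linear axis, in the 3 cKO (red) and 3 WT (blue) libraries; symbols stand for replicate numbers, the black bar for the mean and the whiskers for the SD. The groups overlap in all 6 genes, and the spread is widest for cKO in Il1rl1, from 2.30 to 14.3%.

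At the scale of 10 kb, 47 of the 49 windows were tested, and the remaining 2 held no peak in any library. None of the 47 passed, as 0.0% of 204277 windows did genome-wide, and 2 had an unadjusted p under 0.05. The mean was higher in cKO in 26 windows and lower in 21. The libraries separated with cKO above in 4 windows (8.51%) and with cKO below in 3 (6.38%), where the genome gave 4.32% and 2.29%. Windows with H3K9me2 in all 6 libraries made up 12.2% of the cluster and 4.57% of the genome.

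The 3 separated windows of largest difference all lay in Il1r1, and the first 2 adjoin. In the window from 40240001 to 40250000, the covered percent was 21.4, 17.8 and 13.3 in WT and 0 in each cKO library (difference −17.5, limma adjusted p = 0.764). In the next, from 40250001 to 40260000, it was 14.5, 12.2 and 11.9 in cKO and 0 in each WT library (difference 12.9, limma adjusted p = 0.764). The differences are of opposite sign, and the difference over the whole of Il1r1 was 0.10. The peaks behind them coincided in part. In the first window, peaks lay at 40242634 to 40243528 and 40248600 to 40249848 in WT replicate 1, at 40243479 to 40243979 and 40244753 to 40246028 in WT replicate 2, and at 40245241 to 40246569 in WT replicate 3. A peak of WT replicate 2 thus overlapped one of each other WT replicate, and those of WT replicates 1 and 3 did not overlap. In the second, the peak of cKO replicate 1 at 40252741 to 40254194 overlapped that of cKO replicate 2 at 40253917 to 40255135. The peaks of cKO replicate 3, at 40250330 to 40250830 and 40256386 to 40257072, overlapped neither. The last of these windows, from 40270001 to 40280000, had 6.52, 30.0 and 10% in cKO and 5.0, 5.0 and 6.38% in WT (difference 10.1, limma adjusted p = 0.764).

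**Figure D3:**
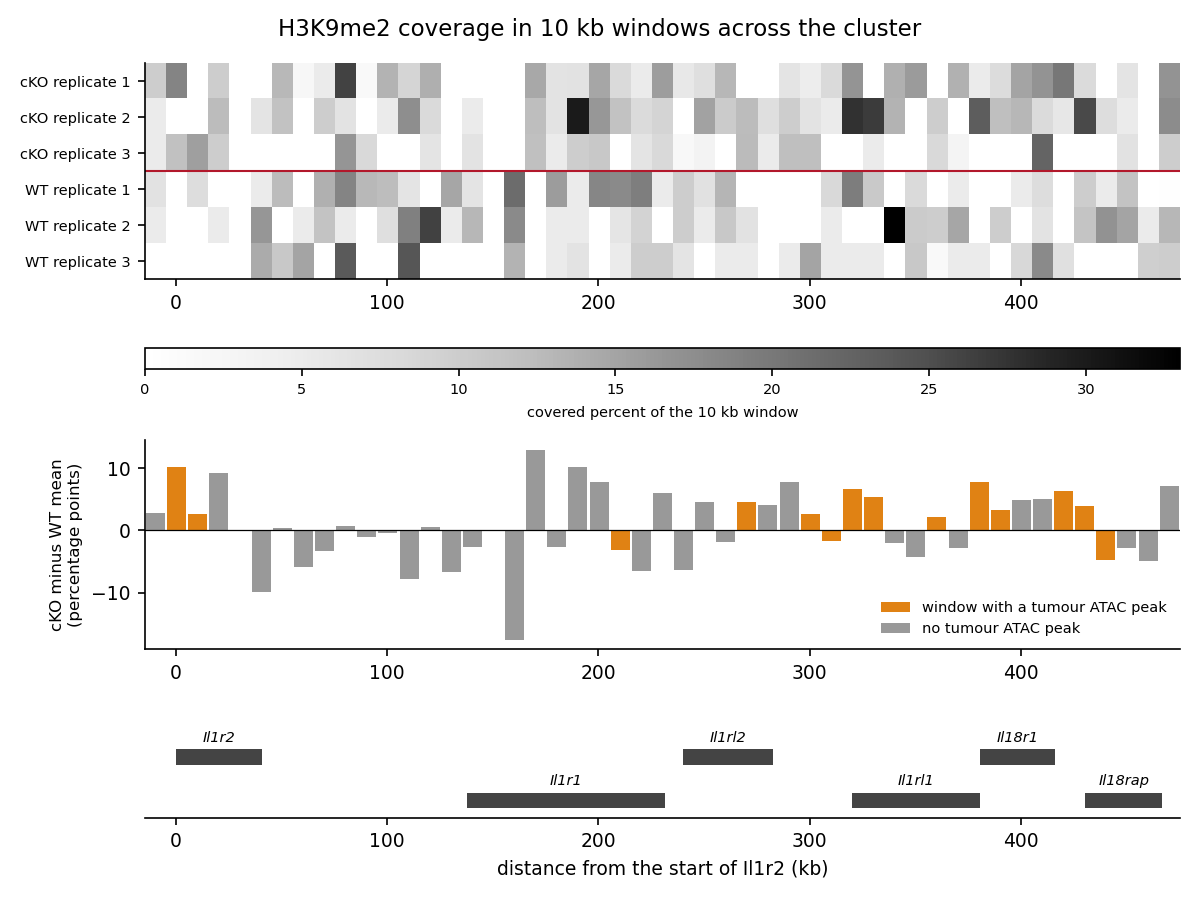
H3K9me2 in the 49 windows of 10 kb, in kb from the start of Il1r2: covered percent in each library (top, darker is more), cKO mean minus WT mean in percentage points on a linear axis (middle, orange where the tumour library has an ATAC peak) and the gene spans (bottom). The bars of −17.5 and 12.9 in Il1r1 adjoin, and orange bars point both ways.

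Repeated coverage of the same bases was measured in the cluster only, with no genome-wide share to set beside it. Peaks of at least 2 libraries covered 8.25% of the cluster. No H3K9me2 peak of any library covered 70.1% of the cluster, peaks of 1 library covered 21.6% and those of all 6 libraries covered 0%. Segments covered in at least 4 libraries numbered 7. The longest, at 40194144 to 40195023 (880 bp), lay between Il1r2 and Il1r1 and reached 5 libraries. A short one, at 40438935 to 40439021 (87 bp), lay in Il1rl1, upstream of its second start at 40439629. That second Il1rl1 promoter window was touched by H3K9me2 peaks of cKO replicate 1, WT replicate 2 and WT replicate 3, and the first by those of cKO replicate 1 and WT replicate 2. The promoter windows of the other 5 genes were touched in 0 libraries, with no share over all promoters to set beside this.

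Of the 23 tumour ATAC peaks of the cluster, H3K9me2 peaks touched 0, 1 and 2 in cKO and 0, 3 and 3 in WT, and 17 were touched in no library. The shares were 0, 4.35 and 8.70% in cKO and 0, 13.0 and 13.0% in WT, each resting on 3 peaks or fewer. Genome-wide they were 8.49, 9.89 and 7.48% in cKO and 4.84, 9.35 and 7.66% in WT, and the cluster lay below them in 3 libraries and above them in 3. The 70.8 peak between Il1rl2 and Il1rl1 was touched in WT replicates 2 and 3 and in no cKO library. Cluster windows with a tumour ATAC peak were covered to 5.93% ± 2.94 (SD, n = 6) and those without to 7.26% ± 1.41 (SD, n = 6). The windows with a peak were lower in 5 of 6 libraries, the exception being cKO replicate 2 with 11.6 against 7.88%. The difference of −1.33 ± 2.67 (SD) had p = 0.28125 in a two-sided exact sign-flip permutation test over the 6 libraries, whose smallest p is 0.03125. The same contrast over the genome had the same sign in 4 of 6 libraries (3.81% against 4.17%, exact permutation p = 0.4375).

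The stretches between the genes were set side by side after the data were seen. Of the 5 that are at least 10 kb long, 2 had all cKO libraries above all WT libraries, where 13.5% of 10998 such stretches genome-wide did. After division by the coverage of the genome in the same library, 1 of the 5 lay wholly above, against 9.99% genome-wide, and 1 wholly below, against 5.71%. With 3 libraries a group, 0.1 is the smallest p each exact permutation test below could give.

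Upstream of Il1r2 the covered percent was 8.65, 7.41 and 4.59 in cKO and 3.58, 4.28 and 2.4 in WT (difference 3.47, exact permutation p = 0.1). On the scale of the genome-wide coverage the values were 1.61, 1.67 and 1.26 against 0.92, 1.05 and 0.706, and the groups remained apart (exact permutation p = 0.1). In lists of equal length the difference was 0.11 and in the stronger 50% of each list 0.285 (exact permutation p = 1.0 in both).

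Between Il1rl2 and Il1rl1 the covered percent was 9.56, 10.8 and 7.79 in cKO and 6.05, 1.34 and 6.70 in WT (difference 4.70, exact permutation p = 0.1). On the scale of the genome-wide coverage the values were 1.78, 2.44 and 2.14 against 1.56, 0.327 and 1.97, and the groups overlapped (exact permutation p = 0.2). In lists of equal length the difference was 2.64 (exact permutation p = 0.5) and in the stronger 50% 2.83 (exact permutation p = 0.4).

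Between Il1r2 and Il1r1, where neither list had an ATAC peak, the sign was the other way. The covered percent was 8.59, 6.64 and 3.85 in cKO and 9.34, 10.6 and 8.51 in WT, and the groups overlapped by a narrow margin (difference −3.12, exact permutation p = 0.2). On the scale of the genome-wide coverage all cKO values, 1.60, 1.49 and 1.06, lay below all WT values, 2.4, 2.59 and 2.51 (exact permutation p = 0.1). In lists of equal length the difference was −3.14 and in the stronger 50% −3.20 (exact permutation p = 0.1 in both).

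**Figure D4:**
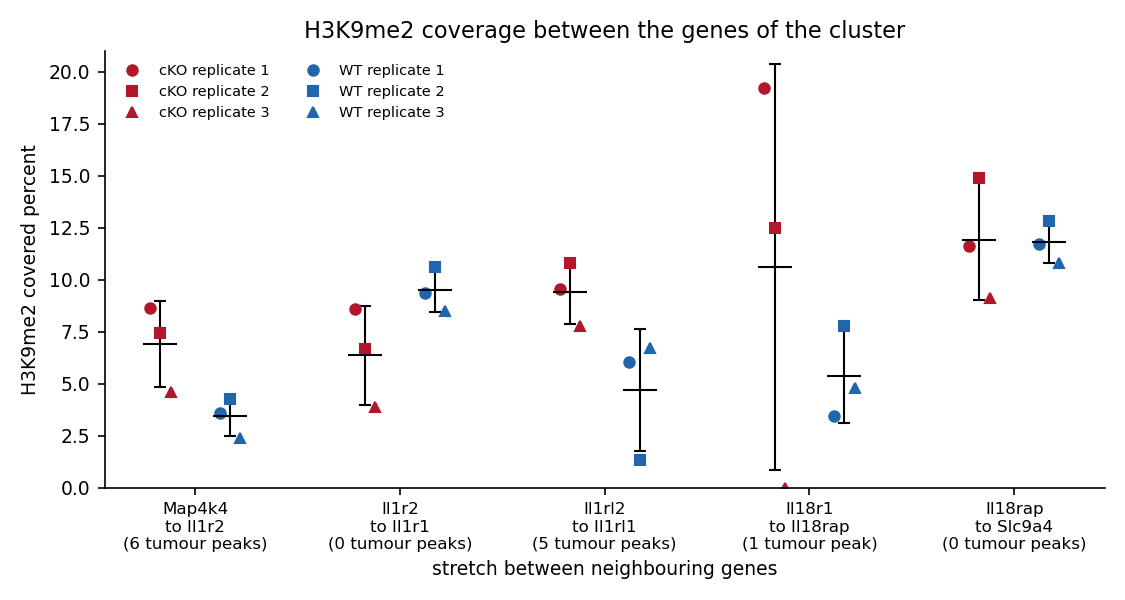
H3K9me2 covered percent, on a linear axis, of the 5 stretches of at least 10 kb between neighbouring genes in the 3 cKO (red) and 3 WT (blue) libraries; symbols stand for replicate numbers, the bar for the mean and the whiskers for the SD. The cKO libraries lie above the WT libraries upstream of Il1r2 and between Il1rl2 and Il1rl1, and overlap them in the other 3. After division by genome-wide coverage the groups between Il1rl2 and Il1rl1 overlap. The number of tumour ATAC peaks is printed under each stretch, and a link to H3K9me2 was not tested.

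Neither flanking gene passed the test for H3K9me2. Map4k4 was covered to 2.08% ± 0.841 in cKO and 1.27% ± 0.509 in WT (SD, n = 3 each, limma adjusted p = 0.796). Slc9a4 was covered to 7.99% ± 1.39 in cKO and 7.41% ± 0.350 in WT (SD, n = 3 each, limma adjusted p = 0.933).

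The rest of the pathway was read from a list of 31 genes outside the cluster, of which 30 were tested for H3K9me2. None of the 30 passed, 24 had a higher and 6 a lower mean in cKO, and the median difference was 1.33 against 1.26 over all genes. The smallest p belonged to Il1f10, a cytokine gene of the family, with a cKO mean of 9.01% and no coverage in WT (limma adjusted p = 0.519). It was followed by Il36g, a ligand of the Il1rl2 receptor, with a cKO mean of 9.25% and likewise none in WT (limma adjusted p = 0.519). Sigirr, an inhibitory receptor of the family, came next with a cKO mean of 5.0% and 0, 1.2 and 0% in WT (limma adjusted p = 0.519).

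In the ATAC lists, 24 of these 31 genes had a tumour peak, 18 a spleen peak and 6 a tumour peak without a spleen peak. Over all protein-coding genes the shares were 59.9%, 47.1% and 14.1%. All 12 adaptor and kinase genes had a tumour peak and 10 had a spleen peak. All 3 genes of NF-κB factors had peaks in both lists. The 10 ligand genes had a tumour peak in 4 cases and a spleen peak in 2. The genes with at least 3 tumour-only peaks were the kinase gene Irak2 with 6, the NF-κB gene Nfkb1 with 5 and the inhibitory kinase gene Irak3 with 3. Irak2 and Nfkb1 also had 5 and 3 spleen peaks, and Irak3 had 0. Il1rap, the accessory chain for Il1r1, Il1rl1 and Il1rl2, had 1 peak in each list, and these overlapped.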

How the data were processed

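H3K9me2 CUT&RUN (6 libraries) and ATAC-seq (2 libraries) were analysed from the peak lists the authors deposited. The build, mm10, and the tools HOMER, Bowtie2 2.4.2, Trim Galore 0.6.6, SAMtools 1.11, deepTools and Picard are listed, without their roles, in the submitters' processing notes. A shift of ATAC cuts is nowhere stated. Per the file headers, HOMER findPeaks ran on each library alone without a control library, in histone style for H3K9me2 (tag threshold 5, p-value of 0.05 against the surroundings) and factor style for ATAC. Per the file headers, the signal of a peak is a tag count scaled by the authors to a common library total, the score is in tags of the library, and the fold and p-value are against the surrounding region. The deposited H3K9me2 lists were filtered further by a step that no header states. The score, fold and p-value of each peak are the authors' own and were used only within a list, for ranks and filters.

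Peaks were merged within each library, and the covered percent of each gene span with 5 kb on both sides, 10 kb window, stretch between genes and the cluster was computed. Genes and windows with a mean of at least 1% were compared with limma 3.58.1 (R 4.3.3, group as the single term, trended empirical Bayes, Benjamini-Hochberg adjustment over all genes or windows, threshold 0.05). The script was tested on simulated data. ATAC peaks were shared if they overlapped by at least 1 base. Gene positions and promoters came from RefSeq GRCm38.p6. Exon positions were not used.

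The genes, gene lists and comparisons were chosen with earlier results of these data known. Named were all members, the 3 non-overlapping windows of largest difference, the 3 pathway genes of smallest p, those with at least 3 tumour-only peaks, and the 5 genes most like Il1rl1 and Il18r1 in peak counts, ties ordered by length. The single peaks and stretches between genes were chosen after their values were seen. Alternatives were the scaling to genome-wide coverage, lists of equal length, the stronger 50% of each list, spans without flanks, no coverage minimum, an arcsine scale, other window sizes, a replicate block and leaving out each library.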

Additional observations from a re-analysis of the deposited data

How the results depend on the processing

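No gene and no 10 kb window was called by limma in the main comparison. Without the coverage minimum 12 genes were called, on the arcsine scale 1 gene, and in windows of 5 kb 1 window. None of the other settings gave a call, and leaving out single libraries gave 0 to 0 calls for both. The cluster difference of 0.775 turned to −0.0944 when scaled to genome-wide coverage and to −0.0458 in lists of equal length, and ran from −0.148 to 2.04 as single libraries were left out. The count of 22 tumour-only ATAC peaks was 7 in the stronger 50% and 5 in lists of equal length, and was 22 under both other definitions of a shared peak.

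The difference of Il1r1 turned to −0.238 when scaled, to −0.847 in lists of equal length and to −1.42 in the stronger 50%, and ran from −1.11 to 2.22 over single libraries left out. Il1rl2 ran from −0.100 to 2.22, and Il1rl1 from −1.01 to 4.99 with −0.562 in lists of equal length. Il18rap turned to 2.54 in the stronger 50% and ran from −3.01 to 1.47. Il1r2 and Il18r1 kept their sign in the 12 alternatives that gave a value, with 1.34 and 2.31 in lists of equal length. Between Il18rap and Slc9a4 the difference of 0.0613 turned to −0.442 when scaled and to −0.737 in lists of equal length. In the stronger 50% that stretch had a difference of 4.27, while the genes Il1r2 and Il18r1 fell under the coverage minimum and gave no value. The causes were not tested. Correlations between cKO and WT libraries were taken on their deviations, not on the covered percent itself. They were 0.0419, 0.00616 and 0.00667 for same-numbered libraries, where the other pairs ran from −0.021 to 0.0122. The labels state no pairing, and these values do not settle it. The replicate block gave 0 called genes, 0 called windows and a cluster difference of 0.775 (exact permutation p = 0.5). Depth limits which short peaks are called, and these lists can miss broad domains. The use of 1 library per tissue leaves the ATAC counts without error.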
